A study of Mus musculus with 4 samples.

Results

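Immediate early response genes are the genes that a cell switches on first after a stimulus, before any new protein is made. The set described here holds 10 of them, fixed by name: Egr1, Fos, Jun, Junb, Atf3, Klf6, Ier2, Ier3, Dusp1 and Zfp36. Each was read by its brightest probe set annotated to that gene alone, which gave 10 of the 18194 genes that the Affymetrix Mouse Genome 430 2.0 array could name. Levels are given on all 4 arrays, since handling of an animal or tissue at sampling can move these genes.

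The arrays carried liver RNA of C57/BL6 mice, 1 array for each of 4 groups, and each array stood for 5 mice. The groups were wild-type liver at 5 months, 5-month liver without tumour from the WHV/c-myc transgenic line, wild-type liver at 11 months, and 11-month primary liver tumour tissue from the WHV/c-myc transgenic line. The transgene joins c-myc to woodchuck hepatitis virus sequences, and the labels do not name the cells that express it. The 5-month transgenic livers were dysplastic and represent the preneoplastic stage. At 11 months genotype and tumour tissue cannot be told apart. The labels speak both of mixed material and of averaged signals, which leaves unsettled if the RNA itself was pooled. All mice were kept in a 12:12 light cycle with free access to food. The hour of killing and the delay before freezing are not given in the sources used here, and their part in any value below was not tested. With 1 array per group there was no spread between replicates, so no test, p-value or SD is given, and no 2 neighbouring levels could be told apart beyond error.

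The products of these genes work at different steps. Growth factors, cytokines and stress activate MAP kinases, which phosphorylate factors already bound at the promoters, such as SRF with its ELK partners and CREB. EGR1, the AP-1 subunits FOS, JUN and JUNB, the related ATF3, and KLF6 are transcription factors that carry the signal to later genes. DUSP1 and ZFP36 close the loop, the first by removing phosphate from MAP kinases and the second by binding AU-rich messages and hastening their decay. In liver the genes are known for a brief surge after partial hepatectomy, ischaemia, cytokine exposure and cell isolation.

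Promoter sequence of 8 of the 10 genes was searched, as the 250 bases before the RefSeq start on build GRCm38.p6. The promoters of 4 genes that were lower in transgenic liver at 5 months are shown beside that of Junb, which was not. Capitals mark a match on either strand to the cAMP response element (CRE) TGACGTCA or its core TGACG, the EGR motif GCGGGGGCG, the CArG box bound by SRF, or the TATA motif TATAAA. The positions are Fos at chr12:85473640-85473889 on the plus strand, Atf3 at chr1:191183334-191183583, Dusp1 at chr17:26508473-26508722, Zfp36 at chr7:28379229-28379478 and Junb at chr8:84978749-84978998, the last 4 on the minus strand. Each is written 5′ to 3′ towards the start.
Fos: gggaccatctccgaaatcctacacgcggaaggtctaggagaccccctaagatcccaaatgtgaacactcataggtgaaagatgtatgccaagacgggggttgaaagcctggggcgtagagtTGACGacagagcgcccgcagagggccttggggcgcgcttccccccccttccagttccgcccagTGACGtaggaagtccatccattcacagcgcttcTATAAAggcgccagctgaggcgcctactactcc
Atf3: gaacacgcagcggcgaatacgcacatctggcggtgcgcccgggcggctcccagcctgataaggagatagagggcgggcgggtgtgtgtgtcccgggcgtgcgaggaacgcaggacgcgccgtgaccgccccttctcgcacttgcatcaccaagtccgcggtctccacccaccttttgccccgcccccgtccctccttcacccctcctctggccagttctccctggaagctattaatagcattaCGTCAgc
Dusp1: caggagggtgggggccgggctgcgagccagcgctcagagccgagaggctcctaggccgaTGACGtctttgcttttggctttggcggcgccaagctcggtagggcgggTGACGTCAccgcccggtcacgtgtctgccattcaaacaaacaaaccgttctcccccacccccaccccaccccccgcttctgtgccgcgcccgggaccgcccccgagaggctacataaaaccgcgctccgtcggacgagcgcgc
Zfp36: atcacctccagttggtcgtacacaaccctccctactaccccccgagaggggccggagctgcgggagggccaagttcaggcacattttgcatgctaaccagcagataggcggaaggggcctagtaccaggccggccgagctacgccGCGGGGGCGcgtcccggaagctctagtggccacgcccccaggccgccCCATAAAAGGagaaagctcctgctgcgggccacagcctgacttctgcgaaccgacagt
Junb: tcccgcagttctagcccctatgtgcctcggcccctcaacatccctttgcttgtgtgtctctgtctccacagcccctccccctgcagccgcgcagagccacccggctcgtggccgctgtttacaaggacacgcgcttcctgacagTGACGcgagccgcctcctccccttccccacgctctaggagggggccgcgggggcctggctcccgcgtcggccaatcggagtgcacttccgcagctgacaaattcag

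The matches differed from gene to gene. Fos held the CRE core at 129 to 125 and at 66 to 62 bases before the start, and TATAAA at 33 to 28. Dusp1 held the full CRE at 143 to 136 bases before the start, which holds the core on both strands, and a further core at 191 to 187. Zfp36 held the EGR motif at 105 to 97 and the CArG box at 58 to 49. Atf3 and Junb each held 1 core, at 7 to 3 and at 106 to 102. The core thus lay in 4 of the 8 promoters, Atf3, Dusp1, Fos and Junb, against 17.77% of the 32851 promoters of the same length in the RefSeq table. The full CRE lay in 1.55% of those promoters, the EGR motif in 2.57%, the CArG box in 1.47% and TATAAA in 12.37%. The AP-1 motif TGANTCA was searched too and matched 0 of the 8, against 6.75% of all. The 8 promoters had a GC content of 54.4% to 68.4%, against a median of 52.4% over all promoters searched. The shares were not matched for this. Jun, Klf6 and Ier3 held none of these letters in this window. A core was present both in genes that were lower at 5 months and in Junb, whose level was not.

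Values below are quantile normalized intensities in the array's own units. A value under 28.275, the median of all normalized values, was treated as not measurable and is called the floor. A ratio against such a value is only a lower limit, given with the words at least, and is called a bound. Levels of different genes come from different probe sets and are not set against each other. All 10 genes passed the floor on 1 or more arrays, as did 13950 of the 18194 genes in all. Of the 10, 7 were above it on all 4 arrays. Fos and Atf3 were above it on 3 arrays, and Ier3 on 1. Of the hepatocyte markers 8 of 8 were above the floor on every array, with summed levels between 31869 and 36092. These near-even sums depended on the scaling. With the arrays shifted to a common median, all 8 were lower in tumour than in 11-month wild-type liver. Their median log2 ratio there was -0.60, against 0.01 over all genes. As deposited it was -0.05, against 0.51. The medians of the deposited values lay between 24.5 and 35.8, highest on the tumour array.

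Egr1, a zinc finger transcription factor, had the widest range of the 10. It read 708 in wild-type liver at 5 months, 78.0 in transgenic liver at 5 months, 172 in wild-type liver at 11 months and 87.2 in tumour tissue. The 5-month wild-type array stood above the other 3, and the transgenic pair was at the low end. Egr1 was 9.07-fold lower in transgenic than in wild-type liver at 5 months (log2 ratio -3.18), 4.11-fold lower in the older than in the younger wild-type liver (-2.04), and 1.97-fold lower in tumour than in wild-type liver at 11 months (-0.98). In bulk liver, fewer cells that make a message and less of it per cell cannot be told apart.

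The AP-1 subunits did not share 1 pattern. Fos, the partner of JUN proteins in AP-1, read 96.5 in wild-type and 26.7, under the floor, in transgenic liver at 5 months, and 73.5 in wild-type liver and 43.6 in tumour at 11 months. It was at least 3.41-fold lower in transgenic liver at 5 months. Both wild-type arrays read higher than both transgenic arrays, as they did for Egr1, Ier2 and Dusp1. For Ier2 this did not hold as deposited, where tumour read 146.2 and 11-month wild-type liver 116.6. Jun read 239.9 and 84.9 in wild-type and transgenic liver at 5 months, and 85.9 and 97.9 in wild-type liver and tumour at 11 months. Its 5-month wild-type level stood alone, 2.83-fold above that of transgenic liver of the same age, while the other 3 arrays lay close together. They lay less close as deposited, where the tumour was at 0.83 over 11-month wild-type and 0.72 over 5-month transgenic liver on the log2 scale. The other Jun probe set, also above the floor on all 4 arrays, had a log2 ratio of -0.58 at 5 months and read 171 and 115 there, so the 2-fold call rested on the probe set used.

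Junb, a JUN relative that can dampen JUN activity, read 65.75 in wild-type and 72.6 in transgenic liver at 5 months, and 91.0 in wild-type liver and 37.0 in tumour at 11 months. Its log2 ratio at 5 months was 0.14, the only one of the 10 above 0. In tumour it was 2.46-fold lower than in wild-type liver of the same age (log2 ratio -1.30), and -0.67 as deposited. Its low point was the tumour array.

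Atf3 and Klf6 were highest in the tumour. Atf3, a stress-induced factor that dimerises with JUN proteins, read 102 in wild-type and 27.2, under the floor, in transgenic liver at 5 months, and 43.35 in wild-type liver and 116 in tumour at 11 months. It was at least 3.60-fold lower in transgenic liver at 5 months, 2.67-fold higher in tumour than in wild-type liver at 11 months, and at least 4.09-fold higher in tumour than in 5-month transgenic liver. Klf6, a Krüppel-like zinc finger factor, read 59.2 and 34.5 in wild-type and transgenic liver at 5 months, and 31.2 and 81.2 in wild-type liver and tumour at 11 months. It was 2.60-fold higher in tumour than in wild-type liver at 11 months, and its log2 ratio at 5 months was -0.78. The tumour stood highest for both genes, with 5-month wild-type liver next. Klf6 had 5 probe sets, of which 2 were under the floor on all 4 arrays. Another passed it on 3 arrays and read 39.1 in 5-month wild-type liver and 36.9 in tumour. It gave a bound of 0.38 for tumour over 11-month wild-type liver. A further probe set passed the floor in tumour alone, at 51.65, with a bound of 0.87. The 2-fold calls of Klf6 thus rested on the probe set used. With a floor raised to the 75th percentile Klf6 had only a bound on its tumour ratio, a log2 value of at least 0.08.

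Of the early response proteins, only Ier2 could be measured throughout. Ier2, a small nuclear protein, read 361 and 119 in wild-type and transgenic liver at 5 months, and 141 and 112 in wild-type liver and tumour at 11 months. It was 3.03-fold lower in transgenic liver at 5 months, and its log2 ratio of -0.34 at 11 months turned to 0.33 as deposited. The 5-month wild-type array again stood alone. Ier3, which acts on ERK signalling and cell survival, read 28.4, 18.5, 28.05 and 25.65 on the arrays in the same order, at or under the floor, so it carries no usable ratio.

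The feedback inhibitors were highest in 5-month wild-type liver and lowest in tumour. Dusp1, the MAP kinase phosphatase MKP-1, read 394 and 182 in wild-type and transgenic liver at 5 months, and 312 and 90.65 in wild-type liver and tumour at 11 months. It was lower in transgenic tissue at both ages, by 2.16-fold at 5 months (log2 ratio -1.11) and by 3.44-fold in tumour (-1.78). The older wild-type liver stood at -0.34 against the younger on the log2 scale. Zfp36, the message decay factor tristetraprolin, read 549.85 and 263 at 5 months, and 193 and 107 at 11 months. It was 2.09-fold lower in transgenic liver at 5 months and 2.85-fold lower in the older than in the younger wild-type liver. Its 5-month transgenic level lay above its 11-month wild-type level. Shifting the arrays to a common median put the 5-month log2 ratio of Zfp36 at -0.97, just under 2-fold.

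**Figure D1:**
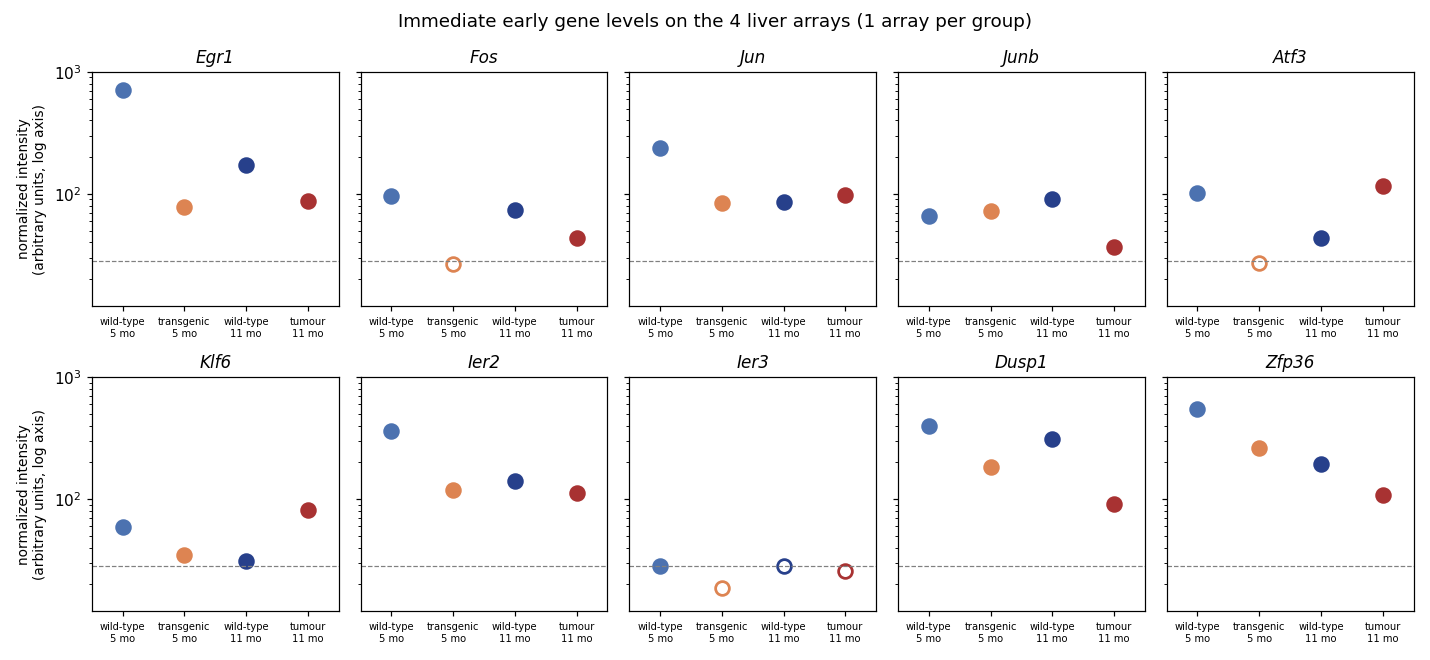
Normalized intensity (log axis, arbitrary units) of each of the 10 genes on the 4 arrays, 1 point per array, with no error bars because each group had 1 array. Open points lie under the floor of 28.275, drawn as a dashed line. The 5-month wild-type point is the highest for 7 genes, among them Egr1 at 708, while Atf3 and Klf6 are highest in tumour and Junb in 11-month wild-type liver.

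Taken by array, 5-month wild-type liver held the highest level of 7 of the 10 genes: Egr1, Fos, Jun, Ier2, Ier3, Dusp1 and Zfp36. Ier3 is among them by a margin at the floor. Over the 13950 genes that passed the floor somewhere, 21.9% were highest there. For Egr1, Jun, Ier2 and Zfp36 that array was at least 2-fold above each of the other 3, as it was for 0.265% of the 13950 genes. Zfp36 missed this with the arrays shifted to a common median, at -0.97 for 5-month transgenic liver. Jun missed it as deposited, reading 228.3 on that array and 127.4 in tumour, and otherwise held it only for the probe set used. The other Jun probe set gave log2 ratios of -0.58 for 5-month transgenic and -0.81 for 11-month wild-type liver against that array. Junb was highest in 11-month wild-type liver, and 0 of the 10 were highest in 5-month transgenic liver. The 7 genes above the floor on all 4 arrays had a median range of 1.69 on the log2 scale, from 1.30 for Junb to 3.18 for Egr1. The median range over all 9474 genes above the floor on all arrays was 0.69.

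The comparison at 5 months asked how preneoplastic transgenic liver differs from wild-type liver. Of the 10 genes 7 were at least 2-fold lower and 0 were higher: Egr1, Fos, Jun, Atf3, Ier2, Dusp1 and Zfp36. The median log2 ratio of the 10 was -1.30, against -0.01 over all 12640 genes with a ratio. Of those genes 1.35% were at least 2-fold lower and 1.47% at least 2-fold higher. Fos, Atf3 and Ier3 entered with bounds. Junb and Klf6 were under 2-fold, and the bound of Ier3 at the floor does not place it.

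The wild-type livers of both ages differed in several of these genes as well. At 11 over 5 months, 5 of the 10 were at least 2-fold lower and 0 were higher: Egr1, Jun, Atf3, Ier2 and Zfp36. The median over the 10 and the all-gene shares follow. The other Jun probe set was at -0.81, under 2-fold, and the mean of the Jun probe sets at -1.15. The median log2 ratio of the 10 was -1.08, against 0.02 over 12810 genes, of which 2.49% were 2-fold lower and 2.15% 2-fold higher. Fos, Klf6 and Dusp1, with log2 ratios of -0.39, -0.93 and -0.34, stayed under 2-fold, and Klf6 had a bound of -1.04 as deposited, past 2-fold. Both comparisons share the 5-month wild-type array. Those 5 genes were 2-fold lower than that array on both other arrays, 5-month transgenic and 11-month wild-type, as were 0.43% of the 13950 genes. Jun was among them only by the probe set used. Zfp36 was not among them with the arrays shifted to a common median, at -0.97 for 5-month transgenic liver.

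Against the 11-month wild-type array, 5-month transgenic liver was 2-fold lower in 2 of the 10 genes, Egr1 at 2.20-fold and Fos at no less than 2.60-fold. That comparison differs in age as well as genotype. The median log2 ratio was -0.33 over 9 genes with a ratio, and 2.31% of 12848 genes were 2-fold lower and 2.67% 2-fold higher. Jun and Ier2 were at -0.02 and -0.25, with Jun at 0.12 as deposited, Dusp1 was at -0.77, and Zfp36 turned to 0.44. Of the 7 genes called at 5 months, Jun, Atf3, Ier2, Dusp1 and Zfp36 were thus not called against the other wild-type array, Atf3 with a bound of -0.62.

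**Figure D2:**
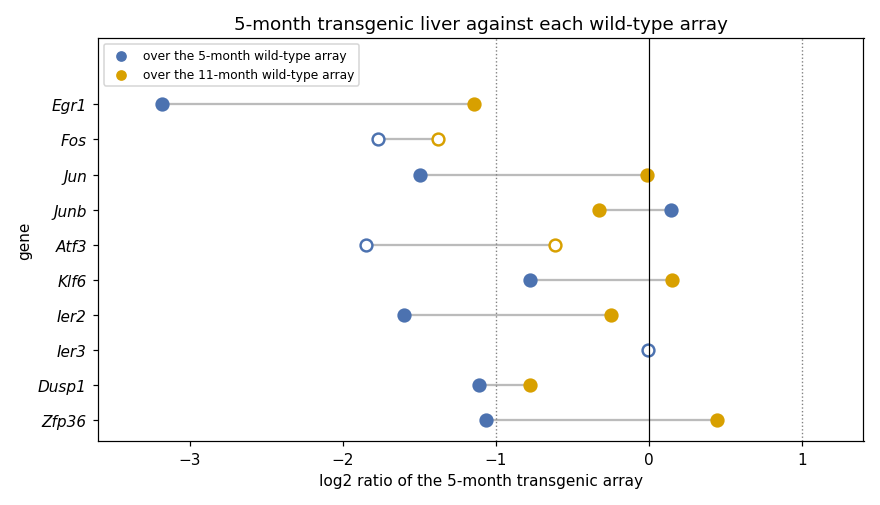
Log2 ratio of 5-month transgenic liver over the 5-month wild-type array (blue) and over the 11-month wild-type array (gold) for each gene, with open points for bounds and dotted lines at 2-fold. Egr1 moves from -3.18 to -1.14 and Zfp36 from -1.07 to 0.44, and Egr1 and Fos are the genes beyond 2-fold against both arrays.

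At 11 months tumour tissue was compared with wild-type liver. Here the 10 genes went both ways. Atf3 and Klf6 were at least 2-fold higher, Junb and Dusp1 at least 2-fold lower, and 5 were under 2-fold, with Ier3 under the floor on both arrays. Over 12920 genes 8.3% were 2-fold higher and 6.49% 2-fold lower. The median log2 ratio was -0.75, against -0.03 over all genes. It was 0.04 as deposited, where the median of all genes was 0.51. Egr1 missed 2-fold, at 1.97-fold lower. Of the 9 genes with a ratio at both ages, 4 lay on opposite sides of wild-type liver at 5 and 11 months, Jun, Junb, Atf3 and Klf6, as did 42.1% of 11610 genes. Set against the 5-month wild-type array instead, the tumour was 2-fold lower in 6 of the 10 genes and higher in 0. Over 13077 genes 7.21% were 2-fold lower and 8.47% 2-fold higher there, in a comparison that differs in age as well. Egr1 stood at -3.02, and Atf3 and Klf6 at 0.18 and 0.46. The mean of all 5 Klf6 probe sets gave a tumour ratio of 0.53 against the 11-month array.

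The transgenic pair, tumour over 5-month transgenic liver, also split. Atf3 and Klf6 were 2-fold higher in tumour, and Dusp1 and Zfp36 were 2-fold lower, at 2.01-fold and 2.44-fold. Dusp1 and Zfp36 were at -0.52 and -0.82 as deposited. The mean of all Klf6 probe sets gave 0.44. The median log2 ratio over 9 genes was 0.16, against 0.02 over 13016 genes, of which 6.79% were 2-fold higher and 5.88% 2-fold lower. Egr1, Jun and Ier2 had log2 ratios of 0.16, 0.21 and -0.09, which were 0.68, 0.72 and 0.41 as deposited. Fos had a bound of 0.62, and of 1.003 as deposited, where 3 of the 10 genes were 2-fold higher and 0 lower. Of all 13494 genes with a ratio as deposited, 2474 were 2-fold higher and 359 lower. Scaling moved the balance of all calls: the share that was higher went from 52.1% to 39.71% as deposited at 5 months, from 56.1% to 92.62% at 11 months, from 46.3% to 20.42% between wild-type arrays and from 53.61% to 87.33% between transgenic arrays. The medians of all genes as deposited were -0.06, 0.51, -0.15 and 0.43 in the same order.

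**Figure D3:**
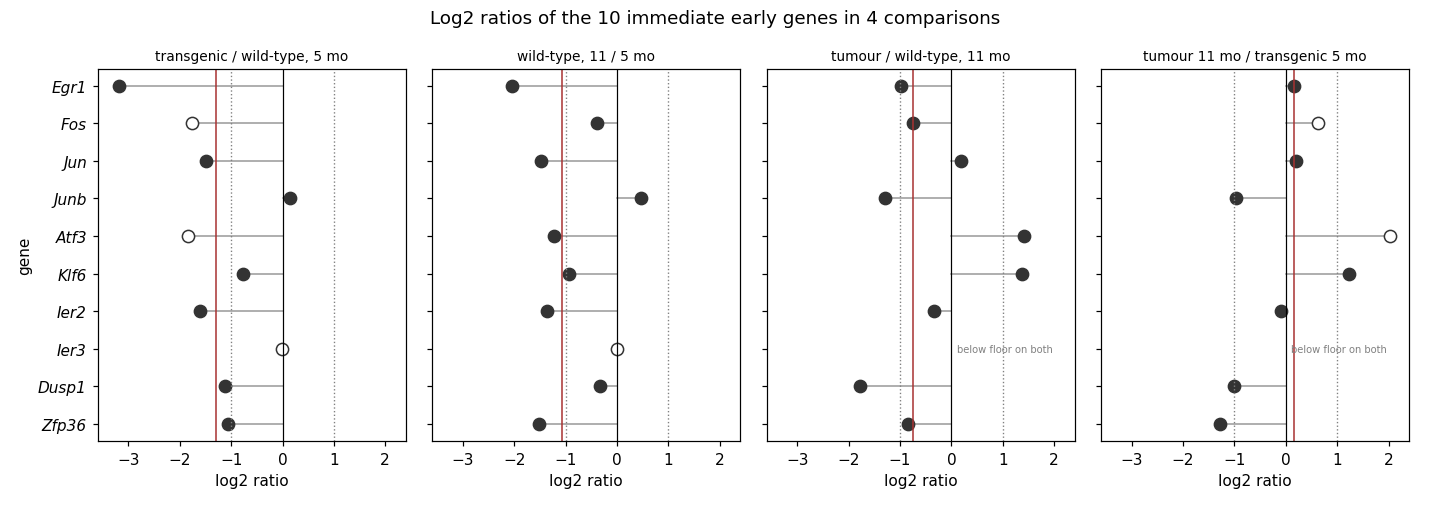
Log2 ratios of the 10 genes in 4 comparisons, 1 panel each, with filled points for measured ratios, open points for bounds, dotted lines at 2-fold and a red line at the median of the 10. The medians stand at -1.30 at 5 months, -1.08 between the wild-type arrays, -0.75 at 11 months and 0.16 between the transgenic arrays.

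Other immediate early genes were described from lists of related genes. Beside the counts in these lists, the share of all genes at least 2-fold lower was 1.35% at 5 months and 6.49% at 11 months. The share at least 2-fold higher was 1.47% and 8.3%. Of 18 other immediate early transcription factors with a ratio at 5 months, 5 were at least 2-fold lower and 2 higher, with a median log2 ratio of -0.38. Cebpd, a bZIP factor of the acute phase response, was 3.82-fold lower, the nuclear receptor Nr4a1 was 2.77-fold lower and Csrnp1, a nuclear protein induced by axin, was at least 3.28-fold lower. Csrnp1 passed the floor in 5-month wild-type liver alone. Its bound for 11-month over 5-month wild-type liver was the same, -1.71. Nr4a1 read 162 and 58.4 in wild-type and transgenic liver at 5 months, and 82.05 and 67.1 in wild-type liver and tumour at 11 months, with the same highest and lowest arrays as Egr1. At 11 months 5 of 18 were lower and 0 higher, with Id3, an inhibitor of bHLH factors, 4.29-fold lower and Bhlhe40, a bHLH repressor, 2.87-fold lower. As deposited 1 of 19 was lower at 11 months, with a median of 0.04, and 1 was higher at 5 months.

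Among other effectors and feedback inhibitors of the early response calls at 5 months all ran 1 way. Of 27 with a ratio 8 fell short of wild-type liver by at least 2-fold and 0 exceeded it, at a median log2 ratio of -0.49. The growth arrest genes Gadd45g and Gadd45a were 3.72-fold and 3.06-fold lower, and the polo-like kinase gene Plk3 was at least 3.08-fold lower. Gadd45g and Gadd45a were also low in wild-type liver at 11 over 5 months, with log2 ratios of -1.59 and -1.87, whereas Plk3 was at 0.33. At 11 months 3 of 25 were higher and 3 lower, with a median of -0.14 that was 0.44 as deposited, where 6 were higher and 1 lower. Plk3 was at least 3.86-fold lower there, and Socs3, which dampens cytokine signals, 2.95-fold lower.

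Few relatives of the 10 genes reached 2-fold. Of 10 other AP-1 family genes with a ratio at 5 months, 1 was 2-fold lower, Batf2 at no less than 2.50-fold, with a median of -0.20. Batf2 passed the floor in 5-month wild-type liver alone. Its bound was -1.32 both there and for 11-month over 5-month wild-type liver. At 11 months 0 of 6 reached 2-fold, and Mafg, a small MAF protein, had the largest ratio at -0.98. None of 12 MAP kinase phosphatases and EGR corepressors reached 2-fold at 5 months, where the corepressor gene Nab2 was at -0.74. At 11 months 2 of 13 were lower, Dusp6 by 2.19-fold and Nab2 by 2.03-fold, but as deposited 0 were lower and 2 higher. Of 11 ZFP36 and KLF relatives 0 reached 2-fold at 5 months, where Klf15 was at -0.81, and 1 did at 11 months, Klf3 at 2.11-fold lower, which did not as deposited. The kinases and SRF factors upstream, 17 of 24 of which had a probe set of their own, had a median of -0.09 at 5 months that was 0.002 at a common array median, with 0 of 17 at 2-fold and Elk1 at a bound of -0.78. In tumour the growth factor receptor gene Egfr was 5.38-fold lower and the SRF cofactor gene Mrtfa at least 3.07-fold higher.

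Lists tied to the state of the animal or tissue at sampling were set beside these values. All 12 glucocorticoid responsive genes were below 0 at 5 months, 4 of them at 2-fold, with a median of -0.66. Over all genes 51.09% were below 0 in that comparison. At a common array median 11 of the 12 were below 0. The metallothionein genes were among them, Mt1 at 4.45-fold and Mt2 at 4.95-fold lower, and Ddit4, an inhibitor of mTOR, was 3.23-fold lower. Wild-type liver at 11 over 5 months had a median of -0.41 for this list, with Ddit4 at -1.61 but Mt1 and Mt2 at 0.44 and 0.23. In tumour 3 of the 12 were higher and 2 lower, with Cdkn1a, the cell cycle inhibitor p21, at least 9.20-fold and Lcn2, an iron-sequestering lipocalin, 6.07-fold higher. As deposited 6 were higher and 1 lower there, and the median of 0.50 was 1.03. The fasting and insulin list had 2 genes lower and 1 higher of 12 at 5 months, with a median of -0.12 that turned to 0.05 at a common array median. Igfbp1, which insulin represses, was 23.7-fold lower, Bcl6 8.08-fold lower and Angptl8 4.29-fold higher. Wild-type liver at 11 over 5 months had Igfbp1 at -1.77, Bcl6 at -0.20 and Angptl8 at -0.14. Against the 11-month wild-type array, 5-month transgenic liver had them at -2.79, -2.82 and 2.24. In tumour Pck1, of gluconeogenesis, was 6.80-fold lower and Bcl6 5.11-fold lower.

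Of 12 heat shock genes with a ratio at 5 months 2 were 2-fold higher and 0 lower, Hsph1 at 2.52-fold and Hspb1 at 2.09-fold. The median was 0.27, and 4 of the 12 were below 0. Hspb1 was higher in 11-month than in 5-month wild-type liver too, at 1.28. In tumour 0 of the 12 were higher and 1 lower, the inducible chaperone gene Hspa1b at 4.41-fold, with a median of 0.14. As deposited 5 were higher and 1 lower there, with a median of 0.70 against 0.51 over all genes. Of 12 hypoxia responsive genes 2 were lower at 5 months, Ddit4 and Pfkfb3, a regulator of glycolysis, the latter by at least 2.26-fold. In tumour 3 were higher and 2 lower, with Ndrg1 4.87-fold and Ddit4 3.45-fold higher. As deposited 7 were higher and 0 lower there. The part of fasting, stress hormones, temperature or oxygen in the levels of the 10 genes was not tested.

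**Figure D4:**
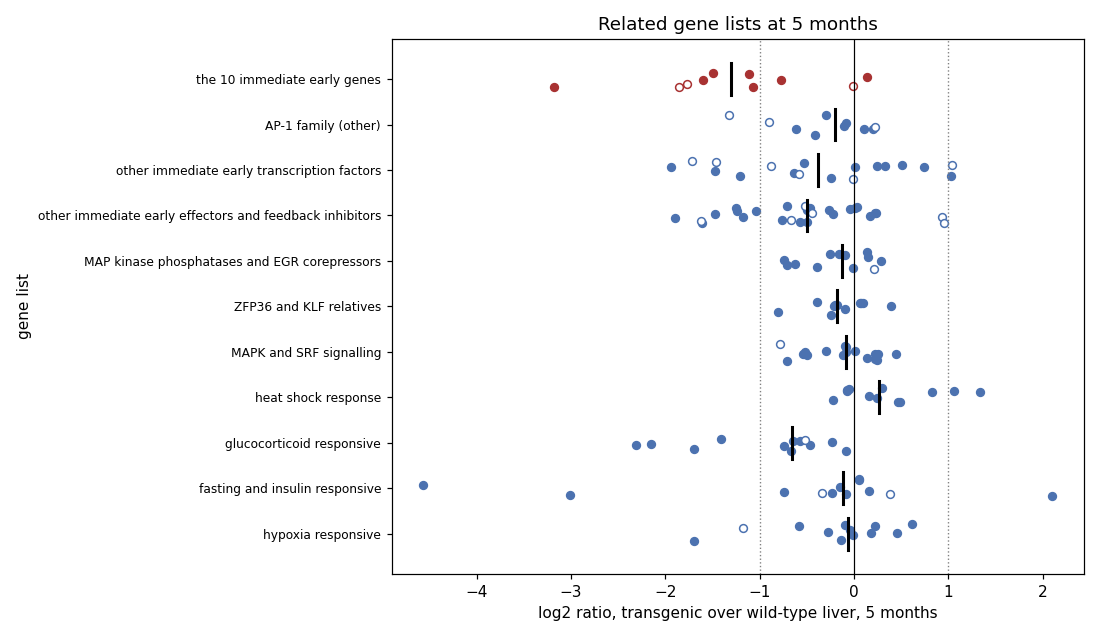
Log2 ratio of transgenic over wild-type liver at 5 months for the 10 immediate early genes (red) and 10 lists of related genes (blue), 1 point per gene, with open points for bounds, black bars at list medians and dotted lines at 2-fold. The 10 genes have the lowest median, -1.30, the glucocorticoid list stands at -0.66 and the heat shock list at 0.27.

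The genes with the most similar profile to Egr1 were found by the distance between centred log2 levels over the 4 arrays, among 9467 genes above the floor on all of them. The 5 nearest were S100a8 (distance 0.89), Jchain (0.92), S100a9 (0.96), Gadd45g (0.98) and Cebpd (1.28). S100a8, which encodes a calprotectin subunit of neutrophils, read 225 and 28.7 in wild-type and transgenic liver at 5 months, and 68.9 and 62.65 in wild-type liver and tumour at 11 months. Of the 6 other immediate early genes above the floor on all arrays, Ier2 was the nearest to Egr1, at 1.23, and Klf6 the farthest, at 2.62. To the mean profile of the 7 genes measured on all arrays, the 5 nearest were Fam189a2 (0.23), Sema6c (0.24), Dok3 (0.29), Nr4a1 (0.32) and A530020G20Rik (0.33). With 4 arrays these distances are descriptions.

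Markers of other cells were set beside these values. Of 6 neutrophil and monocyte markers on the array 5 passed the floor somewhere, and Cxcr2 was under it on all 4. At 5 months 2 of the 5 were 2-fold lower, S100a8 and S100a9, with log2 ratios of -2.97 and -2.68. The 6 markers summed to 883 in 5-month wild-type liver, 499 in 5-month transgenic liver, 534 in 11-month wild-type liver and 837 in tumour. S100a8 and S100a9 alone made 448, 63.4, 118 and 121 of these sums. The other 4 markers summed to 435, 436 and 416 outside the tumour and to 716 in it, so the low 5-month transgenic sum lay in S100a8 and S100a9. Pancreatic acinar markers were high in 5-month transgenic liver alone, with all 6 above the floor there against 2 on each other array, and summed levels of 1207 against 139 to 154. Kupffer cell and macrophage markers summed to between 2462 and 2587 outside the tumour and to 1745 in it, with 8 of 8 passing the floor somewhere. Endothelial markers, also 8 of 8, summed to between 1094 and 1227 outside the tumour and to 636 in it. Stellate cell and fibroblast markers, 9 of 9, summed to between 1741 and 2127, but single markers differed more. At 5 months 2 of 7 with a ratio were 2-fold higher and 0 lower, with a median log2 ratio of 0.62. In tumour 4 of 9 were higher and 3 lower than in 11-month wild-type liver, with a median of 0.92. Cholangiocyte markers (2 of 5 above the floor) summed to between 87.3 and 163, and lymphocyte markers (3 of 7) to between 146 and 200.05. Krt19, Krt7 and Cftr, and Cd3e, Cd3d, Cd4 and Cd79a, were under the floor on all 4 arrays. Xist, the RNA that coats the silenced X in females, read 223 in 5-month transgenic liver and between 54.9 and 71.0 elsewhere. The Y-linked genes were not low on that array: Eif2s3y read 292 there against 331 in 5-month wild-type liver, Uty 89.5 against 109, and Kdm5d 114 against 85.65. In tumour Eif2s3y and Uty had their lowest levels, 133 and 31.4. The part of these cells, of sex or of acinar tissue in the levels of the 10 genes was not tested.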

How the data were processed

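Affymetrix Mouse Genome 430 2.0 arrays measured liver RNA of 4 groups, 1 array each. The deposited intensity values were used as the authors gave them, on a linear scale from 0 to 8783.5 per probe set. The software and background correction are not given in the sources used. The 45101 probe sets were quantile normalized over the 4 arrays, and values under the median of all normalized values, 28.275, were raised to it before log2. This floor is no detection call of the array software. Of the probe sets 34958 had 1 gene symbol, 932 had several and 9211 were not listed. Where a gene had several probe sets of its own, the brightest on average was taken. A gene under the floor on 1 array gave a bound, and on both no ratio. A difference counted from 2-fold. The number of arrays limits the precision. The steps were tested on simulated data.

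The 10 genes and all lists were chosen with earlier results of these data known. Besides the 10 genes, the text names from each list up to 3 genes with the largest ratio of at least 2-fold at 5 months and up to 2 at 11 months, or else the largest. The same genes are followed in the other comparisons, marker genes are named as a list requires, and the 5 genes nearest to Egr1 and to the mean profile are named by distance. Per1 and Sgk1 are in the effector and the glucocorticoid list, Ddit4 in the glucocorticoid and the hypoxia list, and Pdk4 in the glucocorticoid and the fasting list. Alternatives changed the scaling, the floor, the probe set, the fold and the control array. RefSeq promoters (GRCm38.p6) matched 8 genes. Those of Egr1 and Ier2 were not used here. The work ran in Python 3.11.15 with pandas 2.3.3, numpy 2.4.6 and, for plots, matplotlib 3.10.9.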

Additional observations from a re-analysis of the deposited data

Results flagged for a closer look

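For 4 of the 9 genes with a ratio at both ages the transgenic array lay on opposite sides of its wild-type array at 5 and at 11 months. Over all genes 42.1% did so, a share close to that of these genes. With 1 array per group the difference was not tested. Jun had a log2 ratio of -1.50 at 5 months and 0.19 at 11 months, a difference of 1.69. Its other probe set lay below 0 at both ages, at -0.58 and -0.20, and the mean of its probe sets was -0.01 at 11 months. Junb went the other way, from 0.14 to -1.30, a difference of -1.44. Atf3 went from a bound of -1.85 to 1.42, which makes a difference of 3.27 from a bound. Klf6 went from -0.78 to 1.38, a difference of 2.16. The mean of its probe sets gave -0.20 and 0.53, both under 2-fold. Against the 11-month wild-type array its 5-month transgenic ratio was 0.15.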

How the results depend on the processing

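Of the values for the 10 genes as a group, 60 were labelled the same under an alternative and 12 moved. Of the single gene ratios 252 kept their side of 2-fold, 40 moved and 1 reversed. For group values the label allowed some change in size, count or direction. At 11 months against the 5-month wild-type array, 4 calls, 2 each way, became 6 lower and 0 higher under that label. In the transgenic pair the median of 0.16 became -0.09 with the mean of all probe sets, also under it. At 5 months 7 genes were called, against 4 at a 3-fold rule, 2 with the 11-month wild-type array as control and 3 with the mean of both wild-type arrays. With the 11-month array the median of -1.30 was -0.33, and Zfp36 reversed to 0.44. At 11 months 4 genes were called, against 7 at a 1.5-fold rule, 1 at 3-fold and 1 at a 75th percentile floor, and the median of -0.75 was 0.0402 as deposited. Between the wild-type arrays 5 genes were called, and 1 at 3-fold. Between the transgenic arrays 4 were called, against 1 at 3-fold, 2 at that higher floor and 2 with no floor and 16 added to each value. The higher floor turns ratios of dim genes into smaller bounds: at 11 months Junb, Atf3 and Klf6 had bounds of -0.25, 0.60 and 0.08 there. Where scaling or control moved a value, the cause was not tested.

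Counts over all genes, 357, 1911, 594 and 1649 in the order 5 months, 11 months, wild-type pair and transgenic pair, were 1883, 3567, 2474 and 3545 at a 25th percentile floor and 99, 1065, 113 and 845 at the 75th. The mean of probe sets gave 212, 1274, 326 and 1086, a 1.5-fold rule 1835, 4773, 2415 and 4367, and a 3-fold rule 66, 567, 73 and 479. As deposited the 11-month and transgenic pairs gave 3306 and 2833. With no floor the 5-month and wild-type pairs gave 615 and 986. The 11-month control gave 640 at 5 months. Signal near the floor limits Ier3, Fos and Atf3, with bounds at 5 months of -0.33 for Fos and -0.41 for Atf3 at the highest floor. No paired analysis was possible because each group has 1 array.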
